A study of Mus musculus with 6 samples.

Results

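The genes that make, store and break down acetylcholine were examined in the hearts of WT mice and of mutants with a reduced amount of the vesicular acetylcholine transporter. All probe sets whose annotation names 1 of 10 genes were taken: Slc18a3, Chat, Slc5a7, Ache, Bche, Colq, Prima1, Crat, Slc44a1 and Slc44a2. They gave 11 probe sets of the 35556 on the array, with 2 for Slc44a1 and 1 for each of the other 9 genes, against 19938 genes that have a probe set of their own in the annotation. The rule picks probe sets by gene name, not by a measured value.

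The study asked whether a lasting decrease in acetylcholine release alters gene expression in the heart. RNA was measured on 6 arrays (Affymetrix Mouse Gene 1.0 ST), of which 3 carry the label WT and 3 the label VAChT KD, and each array held RNA pooled from 2 samples. All the mice were males of 3 months and were not treated, and the labels give C57BL/6 as the strain of both groups. The VAChT KD mice were homozygous for an allele that lowers VAChT throughout the body and not in the heart alone, and the study's methods give both groups a mixed background, backcrossed for 3 generations. The sample records speak of whole hearts and the study of ventricles. Nothing states that the 2 RNA samples of a pool, or the 3 pools of a group, came from separate litters or cages, so p-values measure the spread between these pools.

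Acetylcholine is the transmitter of the parasympathetic nerves, which slow the heart. In a cholinergic nerve ending the choline transporter of Slc5a7 takes up choline, the choline acetyltransferase of Chat joins it to the acetyl group of acetyl-CoA, and VAChT, the product of Slc18a3, loads the acetylcholine into synaptic vesicles. Released acetylcholine is split by acetylcholinesterase (Ache) and by butyrylcholinesterase (Bche), which are held in place by a collagen tail (Colq) or a membrane anchor (Prima1). The nerve cell bodies lie in ganglia on the atria, so ventricular RNA holds little of their transcripts, and cardiac myocytes have also been described to make some acetylcholine.

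The values are log2 signals after RMA, a procedure that corrects background, equalises the arrays and summarises the probes of a probe set. The median signal of an array lay between 6.84 and 6.98, and the correlation of any 2 arrays over all probe sets was 0.982 to 0.994. As the measure of background, each gene was set against 1030 probe sets of olfactory receptors on the same array. Their median ran from 4.60 to 4.85, their 95th percentile from 6.31 to 6.74 and their 99th percentile from 7.20 to 7.69, and the WT arrays lay at the upper end of each. The mean of their medians was 0.11 log2 lower in VAChT KD than in WT, and whether other dim probe sets share in this shift was not tested. The 9 markers of ventricular myocytes lay above the olfactory 99th percentile on all 6 arrays. Their mean level was 13.80 to 13.81 on the WT arrays, 13.16 on VAChT KD 1, and 13.87 and 13.85 on VAChT KD 2 and 3. The 7 atrial markers had a mean of 8.79 to 8.98 on the WT arrays, 8.88 and 8.96 on VAChT KD 1 and 2, and 9.59 on VAChT KD 3.

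The labels of the arrays numbered 2 need care. Ogdhl, a mitochondrial oxoglutarate dehydrogenase-like gene, read 9.60, 7.21 and 10.33 on WT 1 to 3 and 7.06, 10.17 and 7.09 on VAChT KD 1 to 3, so that each array numbered 2 read like the arrays 1 and 3 of the other label. In the annotation of assembly GRCm38.p6 Ogdhl lies on chromosome 14 with 1 protein-coding gene between it and Chat, and Slc18a3 lies inside the bounds of Chat. Colq is on the same chromosome with 13 protein-coding genes between it and Slc18a3. The groups follow the labels here. The fit was also made without both arrays numbered 2, and its values are given for the members and for the list genes whose call it changed.

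Slc18a3, the gene whose product is reduced in the mutants, did not separate the labelled groups. It read 7.31, 7.42 and 7.11 on WT 1 to 3 and 7.24, 6.77 and 7.58 on VAChT KD 1 to 3. The VAChT KD arrays held both the lowest and the highest value, and the WT values lay between them. The lowest value was that of VAChT KD 2 and the highest WT value that of WT 2, so the comparison depends on the labels of these 2 arrays. The signal in VAChT KD was 94.6% of that in WT, with a 95% confidence interval from 68.6% to 130% (limma adjusted p = 0.873, n = 3 arrays per group). A halving of the probe set signal is outside that interval. Near background a change in transcript level may show only in part in the signal, so the interval does not bound the transcript level. Without both arrays numbered 2 the VAChT KD signal was 115% of WT, with an interval from 87.0% to 152% (limma adjusted p = 0.633). The log2 difference was -0.08 (standard error 0.20) on all arrays and 0.20 (standard error 0.16) without those numbered 2.

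The signal of Slc18a3 was close to background. It exceeded the olfactory 95th percentile on all 6 arrays but the 99th percentile on 1 of them, VAChT KD 3, which was also the array with the highest level of atrial markers. The part of atrial tissue or nerve cells in that value was not tested. In RNA of a whole tissue, fewer nerve cells and less RNA per cell cannot be told apart. Which part of the Slc18a3 transcript the probes cover relative to the altered allele is not given in the sources used here, so that the gene tests the genotype labels only weakly, and since Slc18a3 lies within Chat, transcripts spanning both genes could reach its probes.

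**Figure D1:**
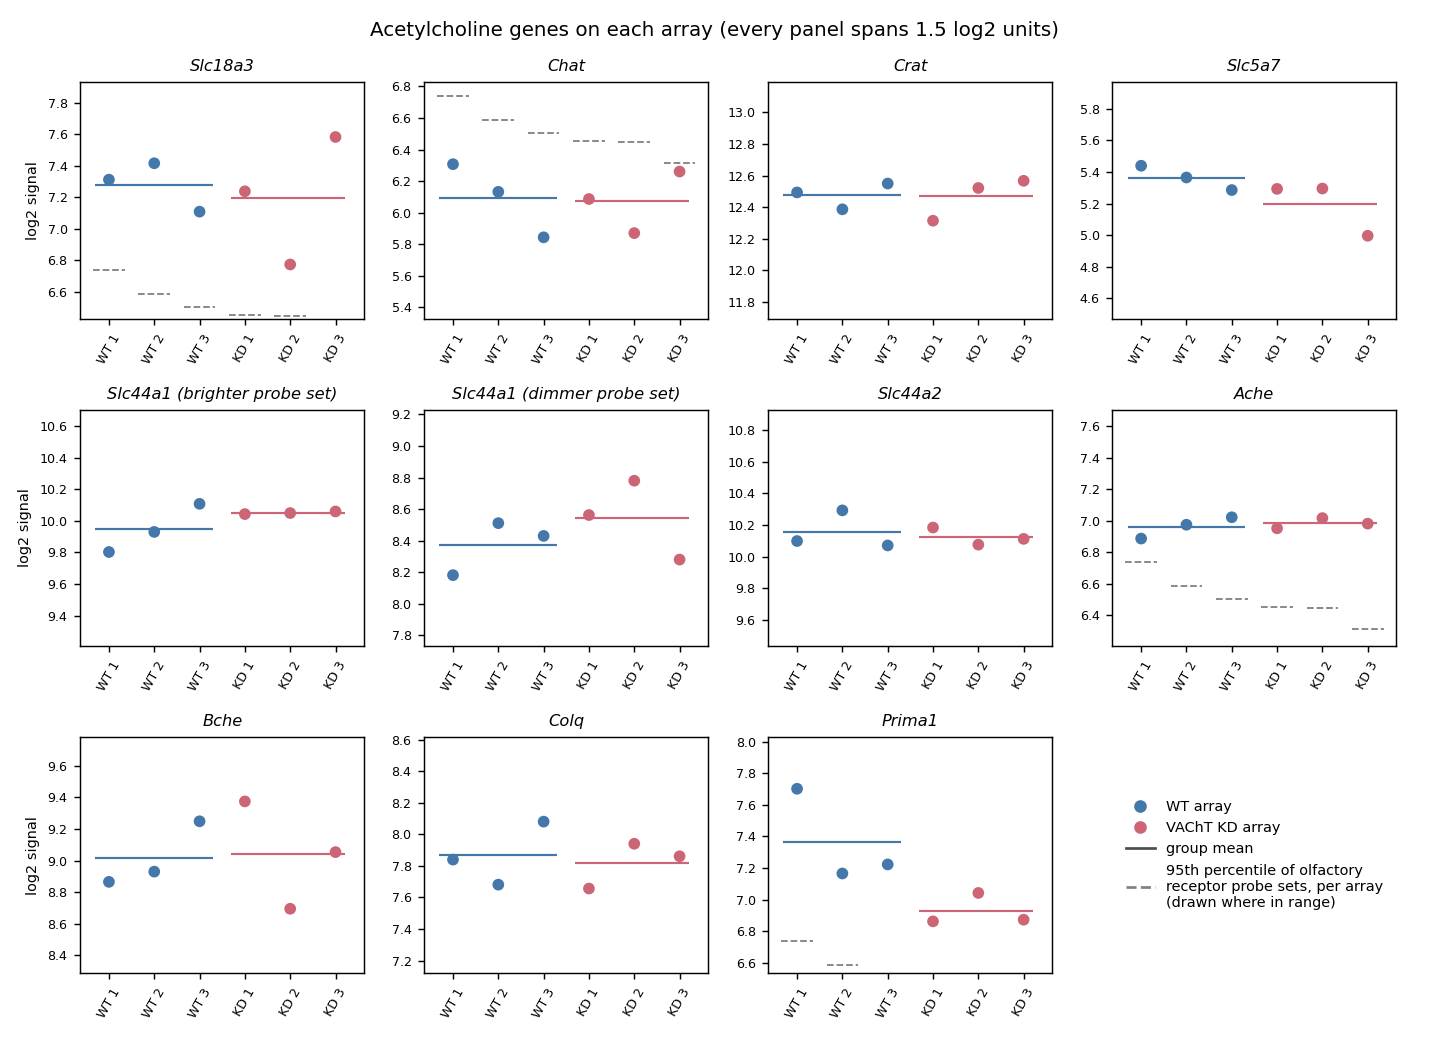
Log2 signal (vertical axes) of the 11 probe sets on the WT arrays (blue) and the VAChT KD arrays (red), with group means as lines and the olfactory 95th percentile of each array as dashes where it falls in the panel. By the labels, all VAChT KD arrays (6.86 to 7.04) lie below all WT arrays (7.17 to 7.70) only in the Prima1 panel.

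Chat, the enzyme that makes acetylcholine, could not be told from background in either group. Chat read 6.31, 6.13 and 5.84 on WT 1 to 3 and 6.09, 5.87 and 6.26 on VAChT KD 1 to 3. None of these values reached the olfactory 95th percentile of its own array, and between 84.2% and 93.9% of olfactory probe sets read lower than Chat. Its log2 difference was -0.02 (standard error 0.15, limma adjusted p = 0.958), and at such a signal a change in transcript level may not be visible.

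Crat, the carnitine acetyltransferase of mitochondria and peroxisomes, transfers the same acetyl group to carnitine and stood far above background, higher than every olfactory probe set on each array. It read 12.49, 12.39 and 12.55 on WT 1 to 3 and 12.31, 12.52 and 12.57 on VAChT KD 1 to 3. The groups overlapped and the VAChT KD signal was 99.4% of WT (95% confidence interval 84.9% to 116%). The 2 mean values, 12.48 ± 0.08 in WT and 12.47 ± 0.13 in VAChT KD (SD, n = 3 each), differed by less than the spread within either group.

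Slc5a7, the high-affinity choline transporter of cholinergic nerve endings, had the dimmest signal of the members relative to the olfactory receptors, of which 63.9% to 71.0% read lower. Its values were 5.44, 5.37 and 5.29 on WT 1 to 3 and 5.29, 5.30 and 4.997 on VAChT KD 1 to 3. WT 3 lay just below VAChT KD 1 and 2, so the groups overlapped. The log2 difference was -0.17 (standard error 0.11, limma adjusted p = 0.527), and it was -0.06 when each array was centred on its own olfactory median.

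The choline transporters of other cells were clearly expressed. Slc44a1, a choline transporter of the plasma membrane and mitochondria, read 9.80, 9.93 and 10.11 on WT 1 to 3 and 10.04, 10.05 and 10.06 on VAChT KD 1 to 3 at its brighter probe set. The VAChT KD arrays lay within 0.02 of each other and inside the range of the WT arrays, which spanned 0.31. At the dimmer probe set the same gene read 8.18, 8.51 and 8.43 on WT 1 to 3 and 8.56, 8.78 and 8.28 on VAChT KD 1 to 3. Both probe sets had a higher mean in VAChT KD, by 0.10 (standard error 0.10) and 0.17 (standard error 0.15), and neither difference exceeded the spread (limma adjusted p = 0.642 and 0.629).

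Slc44a2, its relative, read 10.10, 10.29 and 10.07 on WT 1 to 3 and 10.18, 10.08 and 10.11 on VAChT KD 1 to 3. The VAChT KD values fell inside the WT range, and the signal in VAChT KD was 97.9% of WT (95% confidence interval 84.7% to 113%). Both Slc44a1 probe sets and Slc44a2 exceeded the olfactory 99th percentile on every array.

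The groups overlapped for both cholinesterases, and neither passed the test. Ache, which ends the action of acetylcholine at the synapse, read 6.89, 6.97 and 7.02 on WT 1 to 3 and 6.95, 7.02 and 6.98 on VAChT KD 1 to 3. These 6 values spanned a narrow range, above the olfactory 95th and below the 99th percentile of each array. The log2 difference of 0.02 had the smallest standard error of the members, 0.08, and the 95% confidence interval of the VAChT KD signal was 89.7% to 115% of WT.

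Bche, the cholinesterase that also acts on other esters and circulates in blood, gave the more variable signal of the cholinesterases, well above background. It read 8.87, 8.93 and 9.25 on WT 1 to 3 and 9.37, 8.69 and 9.05 on VAChT KD 1 to 3. The VAChT KD arrays held both ends of the range, as for Slc18a3, and VAChT KD 2 was again the lowest. The VAChT KD signal was 102% of WT, with a 95% confidence interval from 75.7% to 137%.

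For the anchors of the cholinesterases, the labelled groups overlapped at Colq and not at Prima1, and the genes were not tested against each other. Colq, the collagen-like tail that ties acetylcholinesterase to the matrix of muscle end-plates, read 7.84, 7.68 and 8.08 on WT 1 to 3 and 7.66, 7.94 and 7.86 on VAChT KD 1 to 3. The groups overlapped, and the log2 difference of -0.05 (standard error 0.13) became -0.20 (standard error 0.15) without both arrays numbered 2, with limma adjusted p = 0.883 and 0.598.

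Prima1, the proline-rich membrane anchor that holds acetylcholinesterase and butyrylcholinesterase tetramers on nerve cells, was the only member whose groups did not overlap. It read 7.70, 7.17 and 7.22 on WT 1 to 3 and 6.86, 7.04 and 6.87 on VAChT KD 1 to 3. Every VAChT KD array lay below every WT array by the labels, and WT 1 was well above the rest. WT 2 (7.17) was the lowest WT array and VAChT KD 2 (7.04) the highest VAChT KD array. The lack of overlap therefore depends on the labels of these 2 arrays, and with them exchanged the groups would overlap. The mean was 7.36 ± 0.29 in WT and 6.93 ± 0.10 in VAChT KD (SD, n = 3 each), so that the VAChT KD signal was 73.8% of WT (95% confidence interval 57.9% to 94.1%). The log2 difference of -0.44 (standard error 0.15) had an unadjusted limma p of 0.0209, and with n = 3 arrays per group the two-sided exact permutation test gave p = 0.1, the smallest it can give. After adjustment over all probe sets it did not pass (limma adjusted p = 0.409).

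The difference of Prima1 moved with single arrays and with the scaling. Without WT 1 it was -0.27 and below 1.3-fold, and without VAChT KD 1 or VAChT KD 3 its unadjusted limma p was 0.0628 or 0.0586. Without both arrays numbered 2 it was -0.60 (standard error 0.18, limma adjusted p = 0.464). Measured from the olfactory median of the same array, Prima1 stood 2.86, 2.43 and 2.51 higher on WT 1 to 3 and 2.19, 2.35 and 2.27 higher on VAChT KD 1 to 3, which leaves a log2 difference of -0.33 with no overlap. The signal was above the olfactory 95th percentile on all 6 arrays and above the 99th percentile on WT 1 alone. WT 1 also had the highest olfactory median, 4.85, and the highest mean of the 12 pan-neuronal markers, 6.38, against 6.05 to 6.24 on the other arrays. Of these 12 markers, 8 exceeded the olfactory 95th percentile on no array. The mean of the 9 fast skeletal muscle markers was likewise highest on WT 1, at 7.56 against 7.23 to 7.38. The part of these shifts in the Prima1 difference was not tested.

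**Figure D2:**
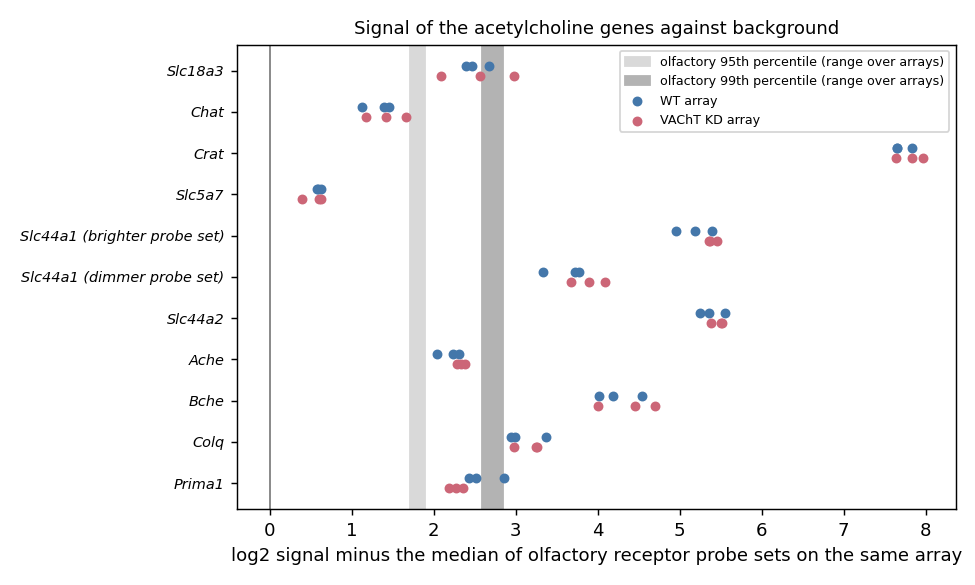
Log2 signal of each probe set minus the median of the olfactory receptor probe sets on the same array (horizontal axis), for WT (blue) and VAChT KD arrays (red), with grey bands for the olfactory 95th and 99th percentiles over the arrays. Slc5a7 and Chat lie left of both bands, Slc18a3, Ache and Prima1 lie right of the first and below or around the second, and Crat stands farthest to the right.

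Of the 11 probe sets, 9 exceeded the olfactory 95th percentile on every array, and 6 of them, belonging to Bche, Colq, Crat, Slc44a1 and Slc44a2, exceeded the 99th percentile on every array. Slc5a7 and Chat did not exceed the 95th percentile on any array, whereas Slc18a3, which acts in the same nerve endings, exceeded it on all 6. Signals of different probe sets are not ranked beyond this, since each depends on its own probes.

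None of the 11 probe sets passed an adjusted p of 0.05 in limma, a level that 0.00281% of all probe sets reached. Prima1 was the 1 member at an unadjusted limma p of 0.05, where 11.7% of all probe sets lay, and the 1 member at that p and 1.3-fold, where 3.79% lay. With the analysis of variance of the study's methods at the same thresholds no member passed, against 1.65% of all probe sets, because the p for Prima1 was 0.0716. The groups did not overlap for 1 of 11 members and for 19.2% of all probe sets, a share of members that is not above that of the array as a whole. The median log2 difference was -0.022 over the 11 probe sets and -0.018 over all probe sets. Leaving out Prima1, the differences ran from -0.17 for Slc5a7 to 0.17 for the dimmer probe set of Slc44a1, and the widest of their 95% confidence intervals was that of Slc18a3, from 68.6% to 130% of WT. Without both arrays numbered 2 the differences of these 10 ran from -0.22 for Slc5a7 to 0.20 for Slc18a3, and no member passed an adjusted p of 0.05 in limma (smallest 0.464, Prima1).

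**Figure D3:**
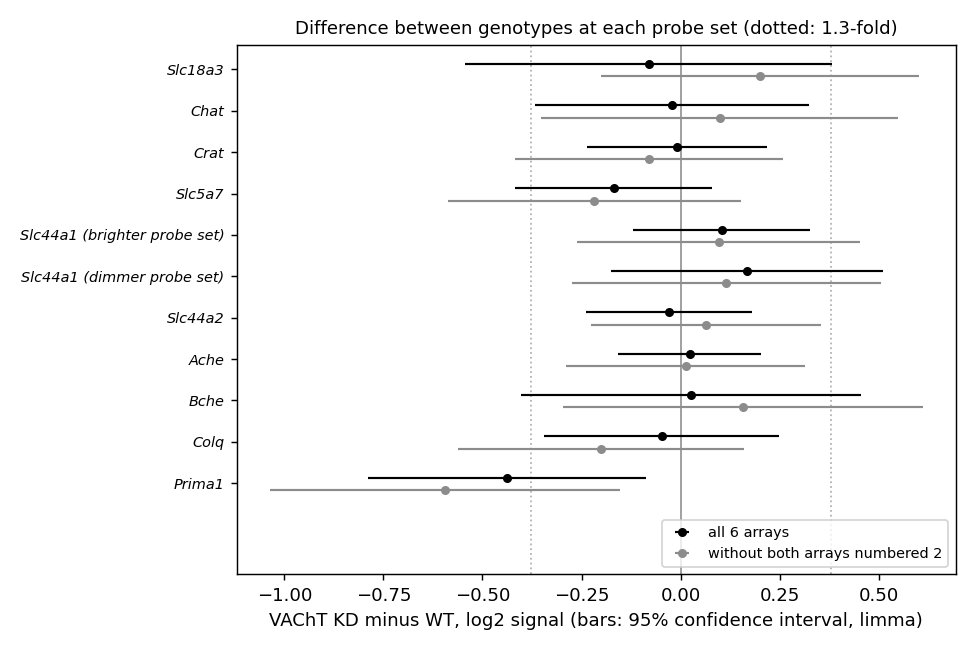
Log2 difference, VAChT KD minus WT, of each probe set with its 95% confidence interval from limma (horizontal axis), on all 6 arrays (black) and without both arrays numbered 2 (grey), with dotted lines at 1.3-fold. The interval of Prima1 lies below 0 in both, from -0.79 to -0.09 on all arrays, and the intervals of the other 10 probe sets include 0.

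The 3 members on chromosome 14 did not share the wide split of Ogdhl. Across the 6 arrays Ogdhl spanned 7.06 to 10.33, whereas Slc18a3 spanned 6.77 to 7.58, Chat 5.84 to 6.31 and Colq 7.66 to 8.08. Ogdhl was low on WT 2 and VAChT KD 1 and 3, where Slc18a3 read 7.42, 7.24 and 7.58. On WT 1, WT 3 and VAChT KD 2, where Ogdhl was high, Slc18a3 read 7.31, 7.11 and 6.77. Divided in this way the values of Slc18a3, Chat and Colq each overlapped, and whether they follow Ogdhl was not tested. Without both arrays numbered 2 the log2 difference turned from -0.08 to 0.20 for Slc18a3 and from -0.02 to 0.10 for Chat, and none of these passed an adjusted p of 0.05 in limma.

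**Figure D4:**
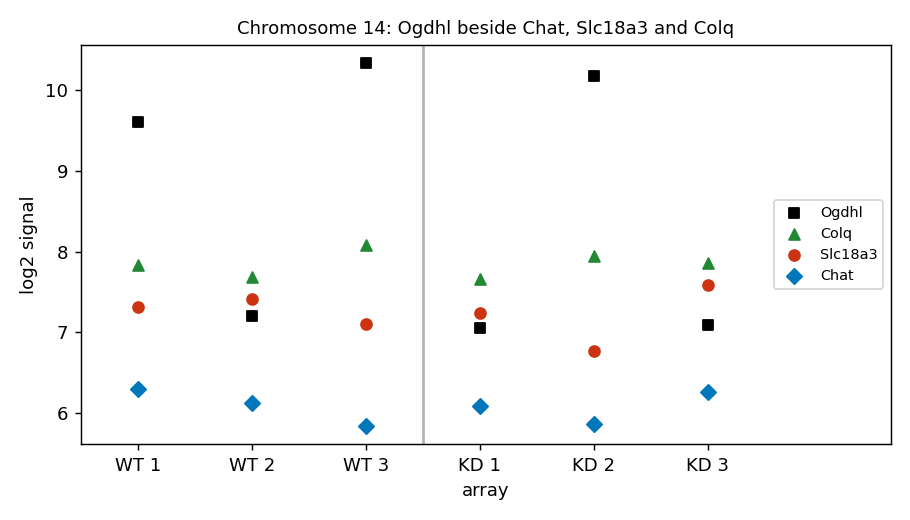
Log2 signal (vertical axis) of Ogdhl, Colq, Slc18a3 and Chat on each array (horizontal axis), WT left and VAChT KD right of the line. Ogdhl reads 7.21 on WT 2 and 10.17 on VAChT KD 2, while the acetylcholine genes stay within narrower ranges on all 6 arrays.

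The genes around acetylcholine metabolism were taken from 7 lists with 82 measured genes of 88. None passed an adjusted p of 0.05 in limma (smallest 0.409), and 7 lay at an unadjusted p of 0.05, with 6 lower and 1 higher in VAChT KD, where 7.81% of all probe sets were lower and 3.93% higher. That split over all probe sets, 2776 lower and 1398 higher, depended on the scaling and became 1300 and 2390 with arrays centred on their medians, and 694 and 3187 with arrays centred on their olfactory medians. For choline entry and use, 3 of 21 genes were lower at that unadjusted p: Pcyt1b, an enzyme of phosphatidylcholine synthesis, at -0.24, Slc22a2, an organic cation transporter, at -0.25, and Slc44a4, a relative of Slc44a1, at -0.24. These 3 were dim, with means of 5.69 to 6.18 in the groups, and none of the 3 held that p when the arrays were centred on their medians. Among 9 genes of acetyl-CoA supply none reached it, and the smallest p belonged to Pdhb of pyruvate dehydrogenase at 0.12 and Acss1, a mitochondrial acetyl-CoA synthetase, at -0.11. Among 5 relatives of Chat and Crat none reached it either, with Cpt1c, a carnitine palmitoyltransferase, at -0.12 and Crot, the carnitine octanoyltransferase of peroxisomes, at 0.09.

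Of 11 genes related to Slc18a3 or to vesicles, Synpr, a vesicle membrane protein, was lower at that unadjusted p, by a log2 difference of -0.33 (limma adjusted p = 0.409), at means of 5.85 and 5.52 that are below the olfactory 95th percentile. Slc18a2, the vesicular monoamine transporter, differed by -0.01, and Atp6v1a, a proton pump subunit, reached an unadjusted p of 0.05 with either centring, at 0.24 and 0.28. Among 12 end-plate and matrix partners of Colq none reached an unadjusted p of 0.05, and Lrp4, the agrin receptor, lay at -0.17 and Chrng, the fetal nicotinic subunit, at -0.24. Chrng reached that p without both arrays numbered 2, at -0.39, and Lrp4 with further quantile normalization. Among 11 neuronal nicotinic subunits none did, with Chrnb4, the ganglionic beta subunit, at -0.27 and Chrna10 at -0.25. Only 2 of these 11 subunits exceeded the olfactory 95th percentile on all arrays.

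Of 13 genes of parasympathetic neuron identity, Hmx3, a homeobox gene, read 7.69, 7.42 and 7.52 on WT 1 to 3 and 7.23, 7.002 and 7.03 on VAChT KD 1 to 3. The groups did not overlap, and the log2 difference was -0.46 (standard error 0.10, limma adjusted p = 0.409), the 1 list gene past both the unadjusted p and 1.3-fold. Ret, the receptor tyrosine kinase for glial cell line-derived factors, was the 1 gene of the 7 lists that was higher at an unadjusted p of 0.05, with 7.31, 7.42 and 7.44 on WT 1 to 3 and 7.66, 7.64 and 7.86 on VAChT KD 1 to 3 (log2 difference 0.33, limma adjusted p = 0.409). Nos1, the neuronal nitric oxide synthase, was lower at an unadjusted limma p of 0.027, at -0.26, and that p became 0.0693 with arrays centred on their medians. Of the 13 genes, 9 exceeded the olfactory 95th percentile on all arrays. Isl1 and Vip, 2 defining genes of such neurons, were the 2 that did not exceed it on any array.

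The medians of the lists were small and several turned with the scaling. The median log2 difference was -0.01 for choline entry and use, 0.04 for acetyl-CoA supply, 0.06 for the relatives of Chat and Crat, -0.04 for vesicle genes, -0.08 for the partners of Colq, -0.08 for nicotinic subunits and -0.13 for parasympathetic neuron identity, against -0.02 over all probe sets. With arrays centred on their olfactory medians those of choline use, vesicle genes, Colq partners and nicotinic subunits became 0.10, 0.07, 0.03 and 0.03, and with arrays centred on their own medians the first 2 became 0.05 and 0.02. With further quantile normalization that of acetyl-CoA supply became -0.003. Without both arrays numbered 2 that of choline use was 0.04 and that of acetyl-CoA supply -0.02, and the other 5 kept their sign. In that fit Hmx3 (-0.48), Ret (0.38), Synpr (-0.44) and Slc44a4 (-0.32) still lay at an unadjusted p of 0.05, and Slc22a2, Pcyt1b and Nos1 did not.

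**Figure D5:**
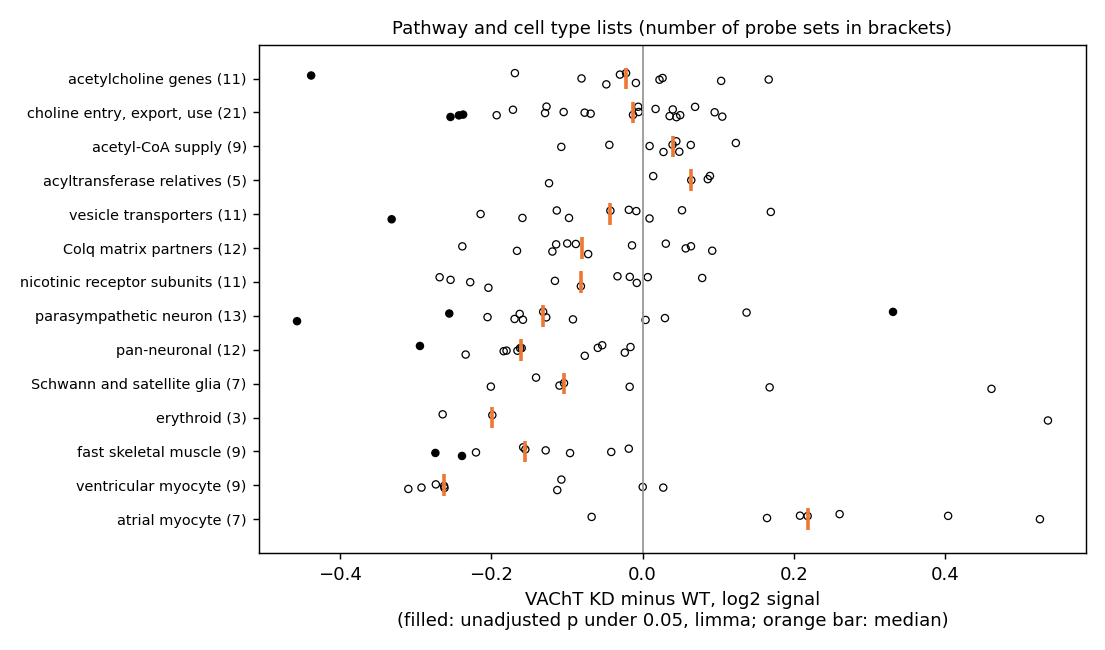
Log2 difference, VAChT KD minus WT (horizontal axis), of each gene among the acetylcholine genes (each probe set) and in the 13 pathway and cell type lists (rows), with the median as an orange bar and filled points for an unadjusted limma p under 0.05. Prima1 is the filled point of the top row at -0.44, and Hmx3 lies at -0.46 and Ret at 0.33 in the row of the parasympathetic neuron.

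Among the markers of cells that the tissue could hold, most pan-neuronal ones did not stand above background. Of 12 pan-neuronal markers 3 exceeded the olfactory 95th percentile on all arrays (Uchl1, Stmn2 and Elavl3), and 8 did so on none, among them Snap25, Tubb3, Nefl and Elavl4. The mean level of the list was 6.22 to 6.38 on the WT arrays and 6.05 to 6.20 on the VAChT KD arrays, and 1 marker, Rbfox3, was lower at an unadjusted p of 0.05 (-0.29). Rbfox3 was short of that p under each of the 3 other scalings and without both arrays numbered 2, where Snap25 reached it at -0.34. All 12 had a lower mean in VAChT KD. So had all 9 fast skeletal muscle, 7 of 9 ventricular, 5 of 7 glia, 2 of 3 erythroid and 1 of 7 atrial markers. How many of all probe sets had a lower mean was not counted, and their median log2 difference was -0.02. The median log2 difference of the 12 pan-neuronal markers was -0.16, which shrank to -0.05 when each array was centred on its olfactory median. The mean level of 7 Schwann and satellite glia markers was 7.11 to 7.24 in WT and 7.13 to 7.23 in VAChT KD arrays, with none at an unadjusted p of 0.05, and Fabp7 lay at 0.46 and Gfra3 at -0.20. Of these 7 markers, 4 exceeded the olfactory 95th percentile on all arrays.

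Fast skeletal muscle, whose end-plates are rich in Colq and Ache, gave a mean level of 7.34 to 7.56 in WT and 7.23 to 7.34 in VAChT KD over 9 markers. Tnni2 at -0.27 and Actn3 at -0.24 were lower at an unadjusted p of 0.05, and neither was so with arrays centred on their olfactory medians or without both arrays numbered 2. Over the 6 marker lists 3 of 47 genes (6.38%) lay at that p in limma, all lower in VAChT KD. Of all probe sets 7.81% were lower at that p. The 3 measured erythroid markers, of a lineage that carries Ache on its membrane, had a mean of 7.36 to 7.47 in WT and 7.10 to 7.63 in VAChT KD, with Alas2 at 0.54 and Epb42 at -0.20, both short of that p. No ventricular or atrial marker reached it on the deposited scale, and Tnnt2 lay at -0.31, Myh6 at -0.26, Myl7 at 0.40 and Mybphl at 0.26. With arrays centred on their olfactory medians Myl7 (0.51), Fabp7 (0.57) and Pdhb (0.23) reached it. The median log2 difference was -0.10 for the glia markers, -0.20 for the erythroid, -0.15 for the skeletal muscle, -0.26 for the ventricular and 0.22 for the atrial ones, and that of the glia became 0.01 with arrays centred on their olfactory medians and that of the ventricular markers 0.01 with further quantile normalization. The mean level of the ventricular markers was below the WT arrays on VAChT KD 1 alone, and that of the atrial markers above them on VAChT KD 3 alone. The part of other cell types in the member values was not tested.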

How the data were processed

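Gene expression was measured in heart RNA on 6 arrays, grouped and numbered by their labels. The deposited values are log2 signals and carry no depth. The authors made them by RMA in Partek Genomics Suite 6.5 from scans taken with Command Console 1.1. The number of arrays limits the precision. The genome build is not given in the sources used here. The platform annotation lists 21789 probe sets with 1 symbol, 1621 with several and 12146 not at all, and only the first were named. Gene order came from RefSeq (GRCm38.p6).

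The difference between VAChT KD and WT was fitted to all 35556 probe sets, with no filter, in limma 3.58.1 (lmFit, eBayes; R version 4.3.3). P-values were adjusted by Benjamini-Hochberg across the whole array. The procedure was tested on simulated data. A percentage of WT is the ratio of geometric means. Members were also compared by a two-sided exact permutation test (SciPy 1.17.1). Lists hold the brightest probe set per gene, with no set test. Named were every member, and in each list the genes at an unadjusted p of 0.05 or else the 2 smallest. Outside that rule, Slc18a2, Atp6v1a, Isl1, Vip and the nerve markers given for their detection were named after their values were seen. The members, lists and tests were chosen with earlier results of these data known. Alternatives were the methods' analysis of variance, other scalings, filters, eBayes settings, array weights, the block, arrays left out, thresholds and background sets. Centring on the olfactory median was added after seeing the data.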

Additional observations from a re-analysis of the deposited data

How the results depend on the processing

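No member passed an adjusted p of 0.05 in limma or in the methods' analysis of variance under any of the 17 alternative fits (smallest adjusted p of a member 0.368 to 0.806), nor did any list gene. The count of 1 member, Prima1, at an unadjusted p of 0.05 and 1.3-fold became 0 with median centring, olfactory median centring, array weights, the methods' analysis of variance or a threshold of 1.5-fold, and it ran from 0 to 1 with single arrays left out, being 0 without WT 1, VAChT KD 1 or VAChT KD 3. Prima1 itself lay between -0.60 and -0.27 in all 17. Chat and Slc5a7 were absent from the fit filtered at the olfactory 95th percentile. For arrays of the same number, the deviations from the group means correlated at 0.0573, -0.125 and 0.133. With 3 arrays per group and the labels of those numbered 2 in doubt, these values cannot show whether such arrays were paired. With the replicate number as a block, the count of members at both thresholds was 1 and that of members at an adjusted p of 0.05 was 0, as without it, and 1489 probe sets in place of 1348 passed both thresholds.

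The count of 10 list genes at an unadjusted p of 0.05 became 5 with quantile normalization, 4 with median centring and 6 without both arrays numbered 2, and ran from 4 (without WT 1 or VAChT KD 3) to 12 (without WT 3) with single arrays left out. The 1348 probe sets past both thresholds became 587 with the methods' analysis of variance, 576 after filtering at the olfactory 95th percentile, 2800 without both arrays numbered 2, and 841 (without WT 1) to 2173 (without WT 2) with single arrays left out.

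The sign of 7 small member differences was not stable. Slc18a3 turned to 0.030 with olfactory median centring and to 0.20 without both arrays numbered 2, and ran from -0.27 to 0.13 with single arrays left out. Chat turned to 0.058 with quantile normalization, 0.045 with median centring, 0.089 with olfactory median centring and 0.10 without both arrays numbered 2 (single arrays left out: -0.15 to 0.085). Bche turned to -0.030 with quantile normalization and -0.015 with array weights (-0.14 to 0.20, likewise, as in the ranges that follow). Colq turned to 0.019 and 0.063 with median and olfactory median centring (-0.14 to 0.059). Crat turned to 0.0036 with quantile normalization, and to 0.058 and 0.10 with median and olfactory median centring (-0.059 to 0.068). Slc44a2 turned to 0.036 and 0.081 with the 2 centrings and to 0.064 without both arrays numbered 2 (-0.072 to 0.039). Ache changed sign only with a single array left out (-0.015 to 0.053).

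The median difference of all probe sets moved from -0.02 to 0.05 with median centring and to 0.09 with olfactory median centring, and that of the members from -0.02 to 0.04 and 0.09. The count of 9 member probe sets above background was also 9 with vomeronasal and taste receptors as background or with either group's mean, 11 at the olfactory median, 6 at the 99th percentile and 8 over 1 probe set per gene. Signals near background limit what could be seen of Slc5a7, Chat and most of the pan-neuronal markers.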
